A study of Homo sapiens with 9 samples.

Results

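The desmosome genes described here are 10 genes chosen by name, DSG2, DSG3, DSC2, DSC3, DSP, JUP, PKP1, PKP2, PKP3 and PERP, out of 59293 genes to which the deposited transcripts could be assigned. All 10 were found in the files. Of these, 9 were among the 15139 genes that passed the filter on low counts and were tested, and PKP1, with 0 to 8 reads per library, was not tested. The samples were MCF10A-YAP cells, that is MCF10A, an immortalised and non-transformed line of breast epithelial cells, with a lentivirally added YAP, a transcription coactivator, in a form that is always active. All groups carried this YAP. The cells of the groups TRAM2-KO2 and TRAM2-KO1 had received a Cas9 vector with a single guide RNA (sgRNA) against TRAM2, a translocon-associated protein of the endoplasmic reticulum, and control cells had received a non-targeting sgRNA. There were 3 poly(A)+ RNA libraries, A, B and C, in each of the 3 groups. The sources describe antibiotic selection after transduction and no isolation of single clones for these cells.

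Desmosomes are spot-like junctions that rivet epithelial cells to each other. In the gap between cells, desmogleins (DSG) and desmocollins (DSC), which are cadherins, bind those of the neighbouring cell. On the inner side, the armadillo proteins plakoglobin (JUP) and plakophilins (PKP) hold the cadherin tails and join them to desmoplakin (DSP), which fastens keratin filaments to the junction. PERP is a membrane protein of desmosomes that is also a target of p53. In breast ducts, desmosomes join luminal cells, basal cells and the layers between them.

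The guide of TRAM2-KO1 is shown because it locates the edit of that group. It is written 5′ to 3′ in lower case with the adjoining PAM, the short motif that Cas9 needs beside its target, in capitals.
TRAM2-KO1: atgctccagctatatgcaccAGG
On GRCh37, this guide lay on the plus strand at chr6:52372361-52372380, wholly in exon 7 of the 11 exons of TRAM2. TRAM2 itself is on the minus strand at chr6:52362206-52441858.

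TRAM2 was checked first. It had 216, 212 and 210 CPM (reads of a gene relative to library depth, after TMM adjustment) in TRAM2-KO2 libraries A, B and C and 219, 210 and 203 CPM in TRAM2-KO1 libraries, against 481, 464 and 475 CPM in control libraries. Its transcript fell by 1.16 (SE 0.0325) on the log2 scale with TRAM2-KO2 and by 1.17 (SE 0.0326) with TRAM2-KO1, with adjusted p of 4.7e-08 and 4.93e-08. Between the guides, TRAM2 differed by 0.01 (95% interval -0.06 to 0.08). The transcript level left was 0.449 of control with TRAM2-KO2 and 0.445 of control with TRAM2-KO1.

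Each library held 21.7 to 27.6 M estimated reads, and 14384 to 14943 genes had at least 10 reads. Of 7 markers fixed for basal-like breast epithelium, 6 were above 1 TPM (a level per transcript length, scaled to the same total in each library), among them KRT5 at 1150 to 1460 TPM, whereas TP63, a defining basal transcription factor, was near 0 at 0.0184 to 0.176 TPM. Of the markers of hormone-sensing luminal cells, GATA3 was at 20 to 29.5 TPM, ESR1 at 0.458 to 0.89 TPM and PGR listed at 0. Markers of fibroblasts, endothelium, leukocytes and melanocytes summed to at most 3.31, 0.0375, 0.54 and 0.801 TPM. Libraries TRAM2-KO1 B and C stood apart in their GC-rich genes. Over the 1892 tested genes whose longest transcript has a GC content of at least 60%, the median log2 level relative to the mean of control libraries in libraries A, B and C was 0.06, 0.01 and -0.10 for TRAM2-KO2 and -0.01, -0.37 and -0.22 for TRAM2-KO1, against -0.02 to 0.02 for control. JUP (61.5% GC) and PKP3 (66.7%) are in this range, and the other members have 38.9% to 56.4%. Results of JUP and PKP3 are therefore given with and without TRAM2-KO1 B and C and after removal of every library's GC trend.

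With TRAM2-KO2, 5 of the 9 tested members rose (DSG2, DSG3, JUP, PKP2 and PERP), 1 fell (DSC3) and 3 did not pass an adjusted p of 0.05 (DSC2, DSP and PKP3), where 1.73% of all genes tested rose and 2.49% fell. The count of 5 dropped to 2 or 3 in every fit that lacked 1 of the libraries of control or TRAM2-KO2. With TRAM2-KO1, 1 of 9 rose (PERP), none fell in edgeR's quasi-likelihood test and 8 did not pass, where 0.753% of all genes rose and 2.15% fell. At an unadjusted p under 0.05, 3 members were higher and 3 lower with TRAM2-KO1, of which DESeq2 called 1 and 2. Shares of all genes at an unadjusted p or in DESeq2 are not given here. Between the guides, 3 of 9 members (DSG3, JUP and PKP3) were higher with TRAM2-KO2 than with TRAM2-KO1 and none was lower, with none lower at an unadjusted p or in DESeq2 either, where 1.41% of all genes were higher and 0.865% lower. The study set its limit for a call at a log2 fold change beyond 0.5. DSG3 alone passed it with TRAM2-KO2, where 0.343% of all genes rose beyond it, and DSG3, JUP and PKP3 passed it between the guides, where 0.416% did.

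The median log2 fold change over the 9 members was 0.20 with TRAM2-KO2, against 0.00 over all genes tested, and 0.05 with TRAM2-KO1, against 0.01. All 3 TRAM2-KO2 libraries lay above all 3 control libraries for 6 of the 9 members, where 11.3% of all genes did, and below them for 1, where 12.3% did. All 3 TRAM2-KO1 libraries lay above all control libraries for 3 members, where 11.9% of all genes did, and below them for 3, where 11.1% did. Both comparisons use the same control libraries. These are whole-culture RNA levels, in which fewer cells with a gene's RNA and less RNA per cell cannot be told apart.

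**Figure D1:**
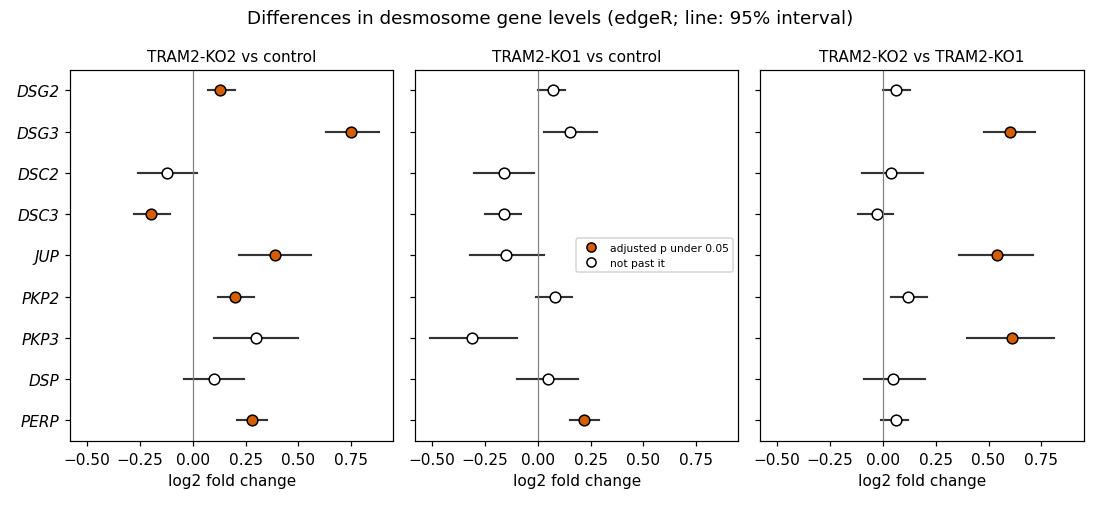
Log2 fold changes of the 9 tested desmosome genes (x axis) in 3 comparisons, from edgeR's quasi-likelihood fit to 9 libraries. Circles are estimates, lines 95% intervals, and filled circles have an adjusted p under 0.05: 6 genes in TRAM2-KO2 against control, 1 in TRAM2-KO1 against control, and 3 in TRAM2-KO2 against TRAM2-KO1.

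DSG3, desmoglein 3, is the desmoglein of the lower layers of stratified epithelia and the target of the antibodies of pemphigus vulgaris. It is on GRCh37 at chr18:29027704-29058665, plus strand. It had 719, 656 and 733 reads in TRAM2-KO2 libraries A, B and C and 462, 383 and 455 reads in TRAM2-KO1 libraries, against 364, 379 and 409 reads in control libraries. Scaled to depth, these were 26.8, 25.9 and 26.7 CPM with TRAM2-KO2 and 17, 17.7 and 17.7 CPM with TRAM2-KO1, against 14.9, 15.5 and 16.8 CPM in control. The TRAM2-KO2 libraries were the 3 highest and did not overlap with any other library. DSG3 rose by 68.6% with TRAM2-KO2 (log2 fold change 0.75, 95% interval 0.63 to 0.88, SE 0.0554, adjusted p = 3.12e-05). In TRAM2-KO1 cells the log2 fold change was 0.15 (SE 0.0572, adjusted p = 0.195), and all 3 libraries lay slightly above all control libraries. The guides differed by 0.60 (SE 0.0548, adjusted p = 0.000562). The call against control with TRAM2-KO2 held under every alternative run, as did that between the guides.

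DSG2, desmoglein 2, is the desmoglein found in all tissues with desmosomes, including simple epithelia and heart muscle, and lies next to DSG3 at chr18:29078140-29128971, plus strand. It had 483, 492 and 492 CPM with TRAM2-KO2 and 453, 483 and 467 CPM with TRAM2-KO1, against 446, 454 and 438 CPM in control. It rose by 9.54% with TRAM2-KO2 (log2 fold change 0.13, SE 0.0296, adjusted p = 0.0337). With TRAM2-KO1 the log2 fold change was 0.07 (adjusted p = 0.255) and the libraries overlapped with control. The adjusted p with TRAM2-KO2 went past 0.05 without control A (0.108), B (0.0721) or C (0.115) and without TRAM2-KO2 A (0.0769), B (0.0972) or C (0.113), with offsets for transcript length (0.137) and with limma on log2(TPM + 1) (0.284), while the log2 fold change stayed between 0.12 and 0.15 in all alternatives.

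DSC3, desmocollin 3, is the desmocollin of basal and squamous epithelial cells and lies at the other end of the cadherin cluster, at chr18:28569331-28622781 on the minus strand. It was the member that fell. It had 113, 122 and 120 CPM with TRAM2-KO2 and 118, 120 and 125 CPM with TRAM2-KO1, against 136, 132 and 139 CPM in control, so that libraries of either guide lay below all control libraries. The change with TRAM2-KO2 was -12.7% (log2 fold change -0.20, SE 0.0384, adjusted p = 0.0171). With TRAM2-KO1 the log2 fold change was -0.16 (SE 0.0384) with an adjusted p of 0.0524, and the guides differed by -0.03 (95% interval -0.12 to 0.05). The call with TRAM2-KO2 was lost without control A (adjusted p = 0.0882) or C (0.0971) and without TRAM2-KO2 A (0.0693) or C (0.0548), with offsets for transcript length (0.544) and with limma on log2(TPM + 1) (0.657). With TRAM2-KO1 the adjusted p was under 0.05 in 7 of 21 alternatives, among them DESeq2 (0.014), without TRAM2-KO1 A (0.049), without TRAM2-KO2 A (0.0452) and with the GC trend removed (0.00439).

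DSC2, desmocollin 2, is the widely expressed desmocollin and lies beside DSC3 at chr18:28638806-28682485, minus strand. It had 17.1, 19.3 and 19.7 CPM with TRAM2-KO2 and 18.2, 17.9 and 18.4 CPM with TRAM2-KO1, against 20.5, 19.3 and 21.1 CPM in control. The log2 fold change was -0.12 (95% interval -0.26 to 0.02, adjusted p = 0.458) with TRAM2-KO2 and -0.16 (-0.30 to -0.02, adjusted p = 0.227) with TRAM2-KO1. DSC2 passed the threshold in neither comparison under any alternative run.

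The 7 desmosomal cadherin genes form a cluster of 560.0 kb on chromosome 18, in the order DSC3, DSC2, DSC1, DSG1, DSG4, DSG3 and DSG2. The ends of the cluster were expressed and its middle was not. DSC1 and DSG1, which mark the upper layers of epidermis, had 0 to 2 reads per library, and DSG4, a desmoglein of hair, had 0 reads in every library. DSG3 and DSG2, neighbours on the same strand, rose by 68.6% and 9.54% with TRAM2-KO2. Antisense genes overlap some members: DSCAS at DSC2 had 0 to 2 reads per library, DSG2-AS1 at DSG2 0 to 5, and DSP-AS1 at DSP 6 to 17. The sources used here do not say whether the counting used strand, so that reads of DSC2, DSG2 and DSP cannot be told apart from those of their antisense partners, whose listed counts were this small.

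Set side by side per transcript length, DSG2 made up most of the cadherin level. The 4 expressed cadherins summed to 127, 138 and 132 TPM in TRAM2-KO2 libraries and 118, 129 and 121 TPM in TRAM2-KO1 libraries, against 123, 121 and 126 TPM in control libraries. DSG2 took 71.1% to 77.2% of that sum over the 9 libraries and DSC3 15.1% to 22.3%. The share of DSG3 was 4.29%, 4.07% and 4.29% with TRAM2-KO2 and 2.92%, 2.84% and 2.99% with TRAM2-KO1, against 2.5%, 2.65% and 2.78% in control, without overlap between any of the groups. DSC2 took 2.9% to 3.76%. In the order of levels, DSC2 stood above DSG3 in control libraries (4.52 ± 0.255 against 3.26 ± 0.23 TPM, SD, n = 3) and in TRAM2-KO1 libraries (4 ± 0.0653 against 3.58 ± 0.111 TPM), and below it in TRAM2-KO2 libraries (4.23 ± 0.466 against 5.58 ± 0.094 TPM). Counted per kilobase of the longest transcript, which for DSC2 is 12377 nt, DSC2 stood below DSG3 in all 3 groups. The transcripts that took most of the DSC2 TPM have 5245 and 4778 nt, so that this divisor sets DSC2 low.

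**Figure D2:**
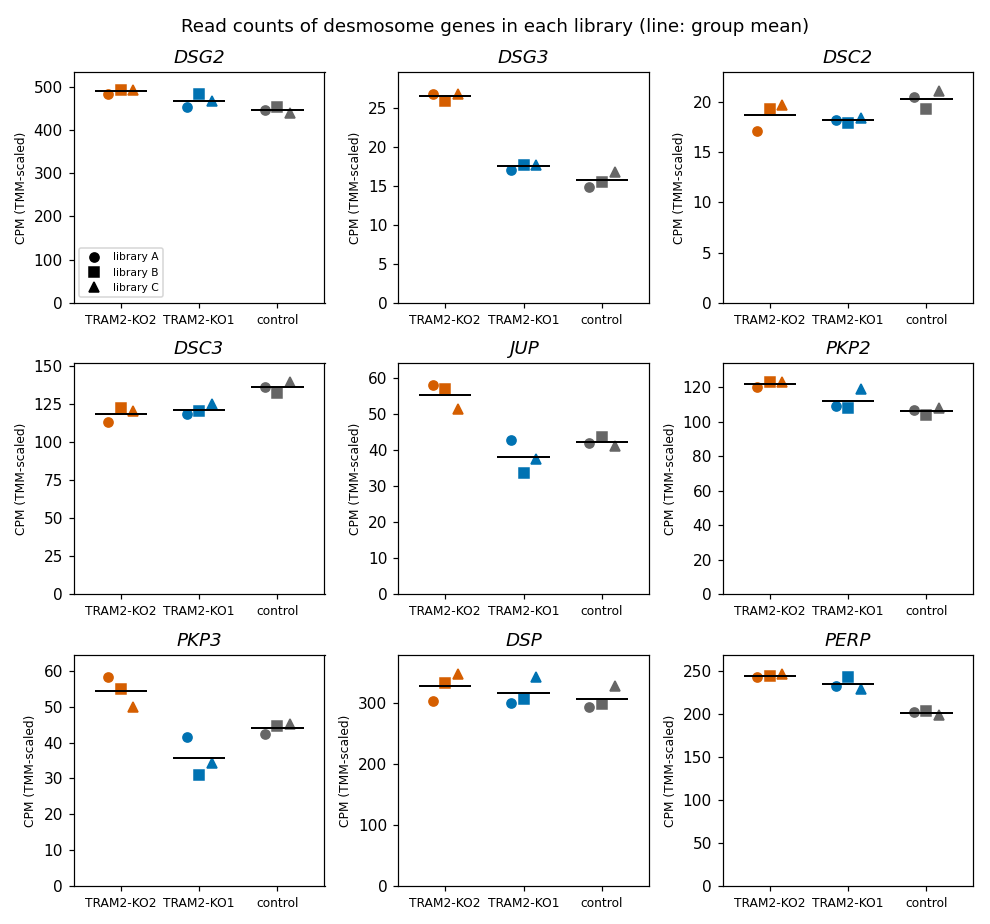
CPM of the 9 tested desmosome genes (y axes, each starting at 0) in every library of TRAM2-KO2, TRAM2-KO1 and control, with the symbol giving the library letter and the line the group mean. For DSG3 the TRAM2-KO2 libraries stand at 25.9 to 26.8 CPM, above all others, whereas for PERP the libraries of both guides, at 229 to 246 CPM, stand above the control libraries at 198 to 203 CPM.

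JUP, plakoglobin, is the armadillo protein shared by desmosomes and adherens junctions and a close relative of beta-catenin. It is at chr17:39910856-39943183, minus strand. It had 58, 56.8 and 51.3 CPM with TRAM2-KO2 and 42.8, 33.7 and 37.6 CPM with TRAM2-KO1, against 42, 43.5 and 41.2 CPM in control. It rose by 31.0% with TRAM2-KO2 (log2 fold change 0.39, 95% interval 0.22 to 0.56, SE 0.0773, adjusted p = 0.0187). The log2 fold change with TRAM2-KO1 was -0.15 (SE 0.0793, adjusted p = 0.349). Library TRAM2-KO1 A was at the level of control, and B and C were below it, in the same libraries in which GC-rich genes stood low. The call with TRAM2-KO2 was lost without control A (adjusted p = 0.0854), B (0.0641) or C (0.0849) and without TRAM2-KO2 A (0.0825) or B (0.0827), at log2 fold changes of 0.36 to 0.44 over all left-out libraries. It was also lost with offsets for transcript length (log2 fold change 0.29, adjusted p = 0.581) and with limma on log2(TPM + 1) (0.29, adjusted p = 0.599). Without TRAM2-KO1 A, the TRAM2-KO1 value was -0.24 (adjusted p = 0.0405). With the GC trend removed, the values were 0.40 with TRAM2-KO2 (adjusted p = 2.33e-05) and 0.03 with TRAM2-KO1 (adjusted p = 0.757).

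PKP3, plakophilin 3, is the plakophilin present in most desmosomes of simple and stratified epithelia, at chr11:392614-404908, plus strand. It had 58.4, 55 and 50 CPM with TRAM2-KO2 and 41.6, 31.1 and 34.3 CPM with TRAM2-KO1, against 42.5, 44.8 and 45.3 CPM in control. The libraries of TRAM2-KO2 lay above and those of TRAM2-KO1 below all control libraries, yet neither comparison passed, with log2 fold changes of 0.30 (SE 0.0915, adjusted p = 0.119) and -0.31 (SE 0.0943, adjusted p = 0.127). The TRAM2-KO2 change passed in 7 of 21 alternatives, among them DESeq2 (adjusted p = 0.0428), in a fit to the 2 groups alone (0.013), without TRAM2-KO1 A (0.0186) and with the GC trend removed (log2 fold change 0.33, adjusted p = 0.000403). With that trend removed, the TRAM2-KO1 value was -0.02 (adjusted p = 0.91), whereas it passed without TRAM2-KO1 A (-0.43, adjusted p = 0.00564), in DESeq2 (adjusted p = 0.0363) and without a filter on low counts (0.0239).

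Between the guides, JUP was higher with TRAM2-KO2 than with TRAM2-KO1 by 0.54 (SE 0.0778, adjusted p = 0.00675) and PKP3 by 0.61 (SE 0.0929, adjusted p = 0.00923). Over all genes with a GC content of at least 60%, the median of this difference was 0.18. With the GC trend removed, it was 0.37 (adjusted p = 0.000197) for JUP and 0.34 (adjusted p = 0.00121) for PKP3. Without TRAM2-KO1 B and C, which leaves a single TRAM2-KO1 library that is assumed to vary like the other groups, it was 0.38 (adjusted p = 0.0752) for JUP and 0.40 (adjusted p = 0.0964) for PKP3. Without TRAM2-KO1 C alone, the adjusted p of PKP3 was 0.0514. Both calls were also lost with offsets for transcript length (adjusted p of 0.241 for JUP and 0.0851 for PKP3) and with limma on log2(TPM + 1) (0.228 and 0.0719). The cause of the GC difference between the libraries was not tested.

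**Figure D3:**
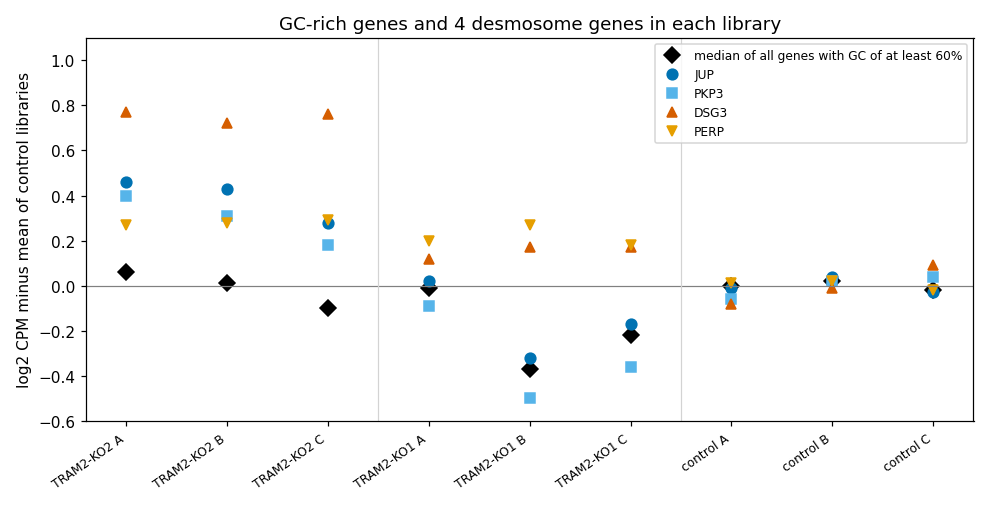
Log2 CPM minus the mean of control libraries (y axis) in each of the 9 libraries, for the median of the 1892 genes with a GC content of at least 60% and for JUP, PKP3, DSG3 and PERP. JUP and PKP3 follow the GC-rich genes down in TRAM2-KO1 B and C, and stand 0.18 to 0.46 above control in TRAM2-KO2 libraries, while DSG3 and PERP do not dip there.

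PKP2, plakophilin 2, the plakophilin of simple epithelia and heart muscle, is at chr12:32943679-33049732, minus strand. It had 120, 123 and 123 CPM with TRAM2-KO2 and 109, 108 and 119 CPM with TRAM2-KO1, against 107, 104 and 108 CPM in control. It rose by 15.0% with TRAM2-KO2 (log2 fold change 0.20, SE 0.0384, adjusted p = 0.0155), and with TRAM2-KO1 the log2 fold change was 0.08 (95% interval -0.01 to 0.16, adjusted p = 0.311). The guides differed by 0.12 (adjusted p = 0.126). The TRAM2-KO2 call was lost without control A (adjusted p = 0.0717), B (0.0934) or C (0.0548) and without TRAM2-KO2 B (0.075) or C (0.0676), at log2 fold changes of 0.19 to 0.22, and also with offsets for transcript length (0.27) and with limma on log2(TPM + 1) (0.34).

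PKP1, plakophilin 1, is a plakophilin of stratified epithelia, at chr1:201252580-201302121, plus strand. It had 1, 2 and 0 reads in TRAM2-KO2 libraries A, B and C and 8, 3 and 6 reads in TRAM2-KO1 libraries, against 2, 2 and 1 reads in control libraries. A library with 0 reads allows up to 3 by counting error alone. At this depth no difference in PKP1 could be assessed.

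DSP, desmoplakin, is the only link of the plaque to keratin that all desmosomes share, and lies at chr6:7541571-7586947, plus strand. It had 303, 333 and 348 CPM with TRAM2-KO2 and 300, 306 and 342 CPM with TRAM2-KO1, against 293, 298 and 327 CPM in control, so that the 3 groups overlapped. The log2 fold change was 0.10 (95% interval -0.04 to 0.24, adjusted p = 0.55) with TRAM2-KO2 and 0.05 (-0.10 to 0.19, adjusted p = 0.736) with TRAM2-KO1. The intervals leave room for a change of the size seen for DSG2 but not of that seen for DSG3.

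PERP was the member that rose with both guides. It is at chr6:138409642-138428556, minus strand, and has a single transcript of 4198 nt in the files. It had 243, 244 and 246 CPM with TRAM2-KO2 and 232, 243 and 229 CPM with TRAM2-KO1, against 202, 203 and 198 CPM in control, without overlap between either guide and control. PERP rose by 21.4% with TRAM2-KO2 (log2 fold change 0.28, SE 0.0298, adjusted p = 0.000452) and by 16.5% with TRAM2-KO1 (0.22, SE 0.0298, adjusted p = 0.00232). The guides differed by 0.06 (95% interval -0.01 to 0.12, adjusted p = 0.298). The change with TRAM2-KO2 passed under every alternative run, and that with TRAM2-KO1 under all but limma on log2(TPM + 1), where the adjusted p was 0.155.

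The promoters of DSG3 and PERP are shown because these were the members whose changes with TRAM2-KO2 held under every alternative. Each runs from 250 bases before to 50 bases after the start of the gene in RefSeq on GRCh38.p14, a build that differs from that of the gene positions above, and capitals mark a match to a searched motif.
DSG3, chr18:31447491-31447790, plus strand: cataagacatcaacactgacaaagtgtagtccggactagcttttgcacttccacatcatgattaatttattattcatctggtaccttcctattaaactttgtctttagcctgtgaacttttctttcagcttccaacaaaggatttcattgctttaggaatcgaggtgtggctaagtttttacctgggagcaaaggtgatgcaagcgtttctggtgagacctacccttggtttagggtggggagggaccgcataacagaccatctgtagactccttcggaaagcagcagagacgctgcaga
PERP, chr6:138107370-138107669, minus strand: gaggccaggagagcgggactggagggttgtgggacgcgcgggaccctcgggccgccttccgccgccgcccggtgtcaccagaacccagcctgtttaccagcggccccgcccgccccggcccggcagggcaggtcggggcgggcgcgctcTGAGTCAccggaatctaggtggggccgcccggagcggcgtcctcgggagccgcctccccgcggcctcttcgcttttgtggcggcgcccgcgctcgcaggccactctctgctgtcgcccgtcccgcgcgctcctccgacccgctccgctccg
RefSeq gave 10 promoter windows for 8 members, with PKP2 and PKP3 not matched. Each was searched on both strands for TGANTCA, the motif of AP-1, GGAATG, that of TEAD, the DNA-binding partner of YAP, CACCTG, the E-box read by SNAI and ZEB repressors, and AACNGGTT, that of grainyhead-like factors. The AP-1 motif was in 1 window, that of PERP, 101 bases before its start, and is in 7.71% of 35116 windows of this length. The E-box was in 4 windows, those of DSG2, DSC2, DSP and JUP, and is in 20.6% of windows. The TEAD motif, in 14.0% of windows, and the grainyhead-like motif, in 1.73%, were in none of the 10, and the DSG3 window held none of the 4 motifs.

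In levels per transcript length, DSG2 and PERP led the members in all 3 groups. DSG2 was at 101 ± 3.99 TPM with TRAM2-KO2 and 93.8 ± 4.05 TPM with TRAM2-KO1, against 90.6 ± 1.34 TPM in control (SD, n = 3 each). PERP was at 69.4 ± 2.32 and 64.8 ± 2.74 TPM with TRAM2-KO2 and TRAM2-KO1, against 56.3 ± 0.422 TPM in control. PKP2 followed at 56 ± 3.99, 50.6 ± 3.32 and 46.8 ± 4.75 TPM in the same order of groups, and DSP at 40.4 ± 3.75, 37.4 ± 2.64 and 36.8 ± 2.57 TPM. Counted per kilobase of the longest transcript, PKP2 and DSP changed places in all 3 groups. The group means of DSC3, PKP3 and JUP lay between 15.6 and 31.0 TPM. In control libraries DSC3 spread over 21.4 to 28.2 TPM, which overlapped with PKP3 at 23.4 to 25 TPM and with JUP at 16.4 to 21.5 TPM, so that the place of DSC3 between them is not set beyond the spread, while PKP3 lay above JUP in all 3. PKP3 stood at 31 ± 1.31 TPM with TRAM2-KO2, above DSC3 at 21.8 ± 2 TPM, while with TRAM2-KO1 the pair stood at 21 ± 3.02 and 21.4 ± 1.66 TPM. PKP1 was listed at 0 to 0.103 TPM.

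**Figure D4:**
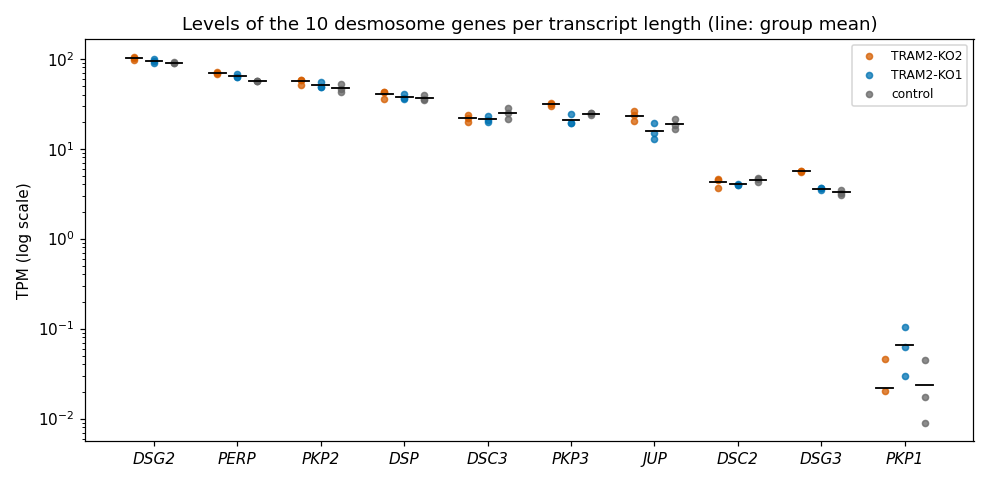
TPM of the 10 desmosome genes (y axis, log scale) in TRAM2-KO2, TRAM2-KO1 and control, ordered by the control mean, with a point per library and a line at the group mean. The PKP1 value of 1 TRAM2-KO2 library, listed at 0, is not drawn, and the other 9 genes stand between 3.06 and 104 TPM.

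Which protein form a member's RNA encoded was read from the shares of its transcripts in the gene's TPM. The split is Salmon's estimate, given as a description with SD over 3 libraries. For DSP, the transcript of desmoplakin I, with 2871 codons, took 83.2% ± 2.88 with TRAM2-KO2 and 88.4% ± 1.46 with TRAM2-KO1, against 85.6% ± 0.956 in control. That of the shorter-rod desmoplakin II, with 2272 codons, took 16.7% ± 2.74, 11.6% ± 1.46 and 14.4% ± 0.956 in the same order of groups. Its lowest TRAM2-KO2 library, at 14.0%, lay above the highest TRAM2-KO1 library, at 13.3%. Control libraries stood at 13.6% to 15.4%, above all TRAM2-KO1 libraries and overlapping with the TRAM2-KO2 libraries.

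Desmocollin genes make a longer a form and a shorter b form, which differ in the tail that meets the plaque. For DSC3, the b form of 839 codons took 77.0% ± 8.69 with TRAM2-KO2 and 79.1% ± 7.12 with TRAM2-KO1, against 77.8% ± 9.62 in control, and the a form of 896 codons 11.8% ± 1.3, 11.3% ± 4.09 and 10.7% ± 1.31. A short transcript of 907 nt took the rest and ranged from 0.0% to 21.0% of TPM, on 0 to 85 reads. For DSC2, the b form of 847 codons and a transcript of 758 codons averaged 46.4% to 49.3% and 47.9% to 50.8% over the groups, with SDs of 6.0 to 11.4 over libraries that exceed the differences between groups.

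For PKP2, the transcript of plakophilin 2a, with 837 codons, took 48.0% ± 3.45 of TPM with TRAM2-KO2 and 47.6% ± 4.28 with TRAM2-KO1, against 51.2% ± 2.62 in control. Transcripts under 1000 nt took 33.9% to 46.8% of its TPM but 6.11% to 9.46% of its reads, among them 1 of 782 nt with no coding sequence at 25.4%, 27.7% and 28.3%. The TPM level of PKP2 therefore rests in large part on few reads over short transcripts. For PKP3 such transcripts took 19.3% to 33.7% of TPM and 1.87% to 4.21% of reads, and for JUP 0.0% to 33.8% of TPM and 0.0% to 5.41% of reads. For JUP, the leading transcript, JUP-203, took 63.9% ± 1.2 with TRAM2-KO2 and 64.3% ± 7.77 with TRAM2-KO1, against 54.5% ± 2.96 in control. Of the JUP reads it took 77.2% ± 3.75 and 77.7% ± 2.27, against 71.0% ± 7.39 in control, a gap within the control spread. JUP-203 and the next, JUP-202, both have 745 codons. DSG3 and PERP each had a single transcript, and DSG2-201 took at least 99.7% of DSG2 in every library. With member transcripts of at least 1000 nt alone, no call of any member changed in the fit to counts. Shorter transcripts held at most 9.46% of the reads of a tested member, so that this fit could change little. The fits with length offsets and on TPM were not repeated in this way.

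**Figure D5:**
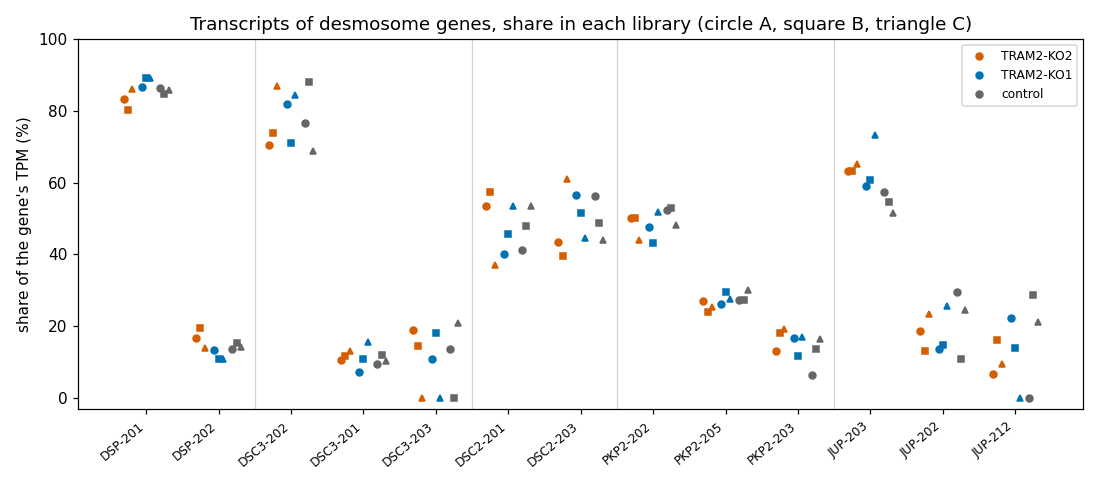
Share of a gene's TPM (y axis, percent) taken by each named transcript of DSP, DSC3, DSC2, PKP2 and JUP, with a point per library, coloured by group (TRAM2-KO2, TRAM2-KO1, control) and shaped by library letter. DSP-201 holds over 80% in all 9 libraries, and DSC3-203 and JUP-212, short transcripts on few reads, fall to 0 in single libraries.

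Genes that work with desmosomes were taken from fixed lists. Over all genes tested, 1.73% rose and 2.49% fell with TRAM2-KO2, and 0.753% rose and 2.15% fell with TRAM2-KO1. Between the guides, 1.41% were higher and 0.865% lower with TRAM2-KO2. Shares of all genes at an unadjusted p or in DESeq2 are not given here, so that such counts only describe a list. Of 12 keratins, the filaments that desmosomes anchor, 11 were tested. With TRAM2-KO2, 7 rose, 4 did not pass (KRT7, KRT8, KRT18 and KRT19, adjusted p of 0.0963 to 0.425) and none fell, with none lower at an unadjusted p or in DESeq2, and their median log2 fold change was 0.27, against 0.00 over all genes. KRT15, a keratin of basal cells, averaged 51 CPM with TRAM2-KO2 against 27.2 CPM in control (log2 fold change 0.90, adjusted p = 2.55e-05), and KRT16, a keratin of stressed and wounded epithelium, 23.3 against 11.8 CPM (0.98, adjusted p = 0.000149). KRT6A and KRT6B, partners of KRT16, changed by 0.25 (adjusted p = 0.00102) and 0.52 (adjusted p = 0.0021). KRT6A, KRT6B and KRT6C are near-identical copies, and how the counting split reads among them is uncertain. With TRAM2-KO1, none of the 11 keratins passed, with 2 lower at an unadjusted p under 0.05, 1 of them called by DESeq2, and the median was 0.00. KRT15 averaged 28.4 CPM and KRT16 12.9 CPM there, and between the guides 7 keratins were higher with TRAM2-KO2, with KRT15 at 0.84 (adjusted p = 0.000229). With limma on log2(TPM + 1), 5 keratins were higher with TRAM2-KO2 than in control and 2 higher than with TRAM2-KO1, and DESeq2 called 8 in each. Between the guides, KRT6A was lost with offsets for transcript length (adjusted p = 0.116) and with limma (0.113), and KRT6B with limma (0.0531). The KRT6B call was also lost without TRAM2-KO1 B and C, which leaves a single TRAM2-KO1 library, at a difference of 0.54 against 0.51 with all libraries.

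Of the other desmosomal and plakin genes, 5 of 8 were tested. PPL, periplakin, which joins keratin to the cell envelope, rose with TRAM2-KO2 to 30 CPM, against 20.4 CPM in control (log2 fold change 0.56, adjusted p = 0.0105), and was at 18.5 CPM with TRAM2-KO1 (-0.13, adjusted p = 0.527). Its call was lost without control A (0.0566), without TRAM2-KO2 A (0.0503) or B (0.0513), with offsets for transcript length (0.0519) and with limma on log2(TPM + 1) (0.0969). EVPL, envoplakin, its partner, was at 35.9 and 26.9 CPM with TRAM2-KO2 and TRAM2-KO1, against 31.7 CPM in control, with adjusted p of 0.497 and 0.267. Between the guides its adjusted p was 0.0727 in edgeR and 0.0073 in DESeq2. EVPL passed with TRAM2-KO2 when the GC trend was removed (0.0238) and with TRAM2-KO1 without TRAM2-KO1 A (0.00903). PKP4, an armadillo protein related to plakophilins, was at 132 and 139 CPM, against 142 CPM in control, with adjusted p of 0.266 and 0.774. CDSN, corneodesmosin, was at 4.5 and 3.16 CPM, against 4.5 CPM in control, with an adjusted p of 0.0599 with TRAM2-KO1, or 0.0301 without TRAM2-KO1 A. The list's median was 0.00 with TRAM2-KO2 and -0.13 with TRAM2-KO1, against 0.00 and 0.01 over all genes tested.

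Of 11 adherens junction genes, all tested, none passed with TRAM2-KO2 (median 0.09, against 0.00 over all genes tested). At an unadjusted p under 0.05, 6 were higher and 1 lower, and DESeq2 called none. The share of all genes at that limit is not given here, so that these counts only describe the list. With TRAM2-KO1, 3 fell (median 0.00), where 2.15% of all genes tested did and their median was 0.01. CDH1, E-cadherin, fell to 118 CPM, against 157 CPM in control (-0.41, adjusted p = 0.0036). CDH3, P-cadherin, fell to 43.9 CPM, against 60.9 CPM (-0.47, adjusted p = 0.000402). The other was NECTIN1. The NECTIN1 change, -0.21 (adjusted p = 0.0357), was -0.04 (adjusted p = 0.763) with the GC trend removed, was lost in 7 of the 9 fits that left out a single library (adjusted p of 0.0556 to 0.14), and had an adjusted p of 0.349 without TRAM2-KO1 B and C. CTNND1, p120-catenin, had log2 fold changes of 0.09 with TRAM2-KO2 (adjusted p = 0.127, or 0.0248 with the GC trend removed) and 0.06 with TRAM2-KO1 (0.277). CDH1 and CDH3 were higher with TRAM2-KO2 than with TRAM2-KO1 by 0.55 (adjusted p = 0.00125) and 0.61 (adjusted p = 0.000229). Their changes with TRAM2-KO1 passed without TRAM2-KO1 B and C and with the GC trend removed, and were lost with offsets for transcript length (adjusted p of 0.213 for CDH1 and 0.297 for CDH3) and with limma on log2(TPM + 1) (0.186 and 0.275). The calls between the guides were lost in the same fits (0.314 and 0.336, and 0.283 and 0.289).

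Of 6 hemidesmosome genes, which tie epithelial cells to the basement membrane, COL17A1 rose with TRAM2-KO2 (0.22, adjusted p = 0.00316) and fell with TRAM2-KO1 (-0.22, adjusted p = 0.00445), at 248 and 182 CPM, against 212 CPM in control. ITGA6 was at 502 and 437 CPM, against 560 CPM in control, with log2 fold changes of -0.16 (adjusted p = 0.0217) and -0.36 (adjusted p = 0.000184). The ITGA6 change with TRAM2-KO2 was lost when any single control library was left out, with adjusted p of 0.0712 (A), 0.1 (B) and 0.11 (C), or TRAM2-KO2 A (0.0747) or B (0.0831), and that of COL17A1 with TRAM2-KO1 had an adjusted p of 0.0523 without TRAM2-KO1 B and C. The COL17A1 calls ended with offsets for transcript length (0.16 with TRAM2-KO2, adjusted p = 0.312, and -0.12 with TRAM2-KO1, adjusted p = 0.435) and with limma on log2(TPM + 1) (adjusted p of 0.392 and 0.464). ITGB4 and PLEC, which join the junction to keratin, did not pass against control in the fit to all 9 libraries (adjusted p of 0.202 to 0.942). ITGB4 with TRAM2-KO2 passed in 4 of 21 alternatives, among them removal of the GC trend (0.00399). With TRAM2-KO1, ITGB4 and PLEC passed without a filter on low counts (0.0477 and 0.0307) and without TRAM2-KO1 A (0.00579 and 0.00772). The list's median was 0.01 with TRAM2-KO2 and -0.25 with TRAM2-KO1, against 0.00 and 0.01 over all genes tested. The TRAM2-KO1 values of ITGB4 and PLEC, -0.27 and -0.37, were -0.02 and -0.05 without TRAM2-KO1 B and C, the libraries in which GC-rich genes stood low.

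Of 15 transcription factors of epithelial or mesenchymal state, 11 were tested. With TRAM2-KO2, 4 rose and 3 fell (median 0.06), where 1.73% of all genes tested rose and 2.49% fell (median 0.00). With TRAM2-KO1 none passed (median 0.04, against 0.01 over all genes tested). There, 1 was higher and 1 lower at an unadjusted p under 0.05, and DESeq2 called none. KLF4, a factor of the epithelial barrier, averaged 11.7 CPM with TRAM2-KO2, against 8.83 CPM in control (0.41, adjusted p = 0.0066). SNAI2, a repressor of cadherin genes in epithelial-mesenchymal transition, averaged 144 CPM with TRAM2-KO2, against 174 CPM in control (-0.27, adjusted p = 0.00141). GRHL2, a grainyhead-like activator of junction genes, had a log2 fold change of 0.33 (adjusted p = 0.00243), which was -0.04 with offsets for transcript length. Others that passed, chosen for mention after their values were seen, were OVOL2 (0.45, adjusted p = 0.0302), ZEB1 (-0.25, adjusted p = 0.017) and ZEB2 (-0.22, adjusted p = 0.0435). The OVOL2 call was lost without control A (0.128) or B (0.129) or TRAM2-KO2 A (0.105), B (0.0908) or C (0.0876), and that of ZEB1 without control A (0.0783) or B (0.0548) or TRAM2-KO2 A (0.0726) or C (0.0707). That of ZEB2 was lost without control A (0.119), B (0.151) or C (0.142), TRAM2-KO1 C (0.0595), or TRAM2-KO2 A (0.088), B (0.139) or C (0.148), and in DESeq2 (0.267). With the replicate block, OVOL2 had an adjusted p of 0.0668 and ZEB2 of 0.0748.

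Of 6 enzymes that act on desmosomes, 3 fell with TRAM2-KO2 (median -0.09) and 2 with TRAM2-KO1 (median -0.04). Over all genes tested, 2.49% and 2.15% fell, at medians of 0.00 and 0.01. None of the 6 rose, with 2 and 1 higher at an unadjusted p under 0.05 and none of these called by DESeq2. ADAM10, a sheddase of desmoglein 2, averaged 272 CPM with TRAM2-KO2 and 269 CPM with TRAM2-KO1, against 314 CPM in control (-0.21 and -0.23, adjusted p = 0.0022 and 0.00149). ADAM17, another sheddase, was at 45.8 and 45.5 CPM, against 53.5 CPM (-0.23 with either guide, adjusted p = 0.0121 and 0.0127). The ADAM17 calls were lost without control B (0.0621 and 0.0559) or C (0.0562 and 0.0515), and that with TRAM2-KO2 also without TRAM2-KO2 C (0.0584). PRKCA, the kinase that makes desmosomes calcium-dependent, was at 50.2 CPM with TRAM2-KO2 and 59.9 CPM with TRAM2-KO1, against 61.5 CPM in control (-0.29, adjusted p = 0.00599, and -0.04, adjusted p = 0.714). ZDHHC5, a palmitoyltransferase for desmosomal proteins, had log2 fold changes of 0.06 and 0.09, with adjusted p of 0.29 and 0.111. Calls against control of ITGA6 with TRAM2-KO2, and of NECTIN1, KLF4, GRHL2, OVOL2, ZEB1, ZEB2, PRKCA and ADAM17, were also lost both with offsets for transcript length and with limma on log2(TPM + 1), and those of SNAI2 and ADAM10 with limma (adjusted p of 0.143 for SNAI2, and 0.062 and 0.0844 for ADAM10).

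The genes whose levels were most like those of DSG3, by Pearson correlation of log2 CPM over the 9 libraries among 10637 genes of at least 5 CPM that are not members, were SCEL (r = 0.99), CLDN1 (0.984), FAM83D (0.984), ALDH1A3 (0.981) and TRIM16 (0.975). The points are libraries of 3 groups and share their differences in group, so that the r values only describe a shared pattern. SCEL, sciellin, a precursor of the cornified envelope, averaged 78.9 CPM with TRAM2-KO2 and 60.1 CPM with TRAM2-KO1, against 56.9 CPM in control. CLDN1, a tight junction protein, averaged 19.8 and 12.3 CPM with TRAM2-KO2 and TRAM2-KO1, against 10.6 CPM in control. That both were highest with TRAM2-KO2, as DSG3 was, follows from their choice by likeness to DSG3.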

How the data were processed

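RNA-seq libraries (9, poly(A)+) came from MCF10A-YAP cells, 3 each of TRAM2-KO2, TRAM2-KO1 and control, grouped by their sample titles. The series design text names other conditions, which the titles contradict. The authors trimmed reads with cutadapt and quantified transcripts with Salmon; their versions, the transcript release and the build: not given in the sources used here. Deposited for every transcript were Salmon's estimated counts, which the authors left unnormalised, and its TPM. The kit is TruSeq in the labels and its stranded form in the paper's methods.

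Estimated counts were summed per gene through GENCODE release 44 on GRCh37, onto which 220336 of 226030 transcripts (97.5%) and 98.4% to 98.5% of reads fell, and rounded. Genes passing edgeR's filterByExpr (minimum count 10) were fitted in edgeR 4.0.16 (R 4.3.3) by quasi-likelihood with TMM scaling to all 9 libraries, with 3 groups as terms. Tests were two-sided and p values adjusted by Benjamini-Hochberg over 15139 genes. "Rose" and "fell" mean an adjusted p under 0.05. A prior count of 2 entered log2 CPM. Intervals are at 95%. The common biological coefficient of variation was 5.86%. The series text calls the replicates biological and gives no more on how cultures were kept apart, so that p values measure the spread between these libraries, which may be partly technical. The limit given for a library with 0 reads covers counting error only.

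Alternatives were DESeq2 1.42.0, RLE size factors, no filter, a mean of at least 5 CPM, the 2 groups compared alone, the library letter as a replicate block, removal of each library's GC trend, both together, offsets from effective lengths, limma 3.58.1 on log2(TPM + 1), and leaving out each library. Leaving out TRAM2-KO1 B and C, and member transcripts under 1000 nt, were added after seeing the data. Named were all members and TRAM2, up to 4 genes per list with the smallest p against control, and the 5 genes most like DSG3, with exceptions given in the text; 1 gene so named and 1 guide sequence are not reported here. Members and lists were chosen with earlier results of these data known. The procedure was tested on simulated data. Libraries with the same letter did not deviate together (r of -0.0881 to 0.107), so the letters were not taken to pair them.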

Additional observations from a re-analysis of the deposited data

Results flagged for a closer look

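In 3 desmosome genes the effect of the guides against the shared control differed, by the test of the difference itself in edgeR. The level was higher with TRAM2-KO2 than with TRAM2-KO1 by 0.60 on the log2 scale for DSG3 (adjusted p = 0.000562), by 0.54 for JUP (adjusted p = 0.00675) and by 0.61 for PKP3 (adjusted p = 0.00923). Against control, the log2 fold changes with TRAM2-KO2 and TRAM2-KO1 were 0.75 and 0.15 for DSG3, 0.39 and -0.15 for JUP, and 0.30 and -0.31 for PKP3. Of these, only those of DSG3 and JUP with TRAM2-KO2 passed. The RNA of TRAM2 differed by 0.01 between the guides (adjusted p = 0.879). GC-rich genes as a whole stood low in TRAM2-KO1 B and C. Without those libraries the difference was 0.38 for JUP (adjusted p = 0.0752) and 0.40 for PKP3 (adjusted p = 0.0964), and DSG3 kept its call. With the GC trend removed, JUP (0.37, adjusted p = 0.000197) and PKP3 (0.34, adjusted p = 0.00121) passed, and both were lost with offsets for transcript length (adjusted p of 0.241 and 0.0851) and with limma on log2(TPM + 1) (0.228 and 0.0719).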

How the results depend on the processing

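Directions of DSG3 and PERP against control and of JUP, PKP2, DSG2 and DSC3 with TRAM2-KO2 were kept in all 21 alternatives, and no member reversed a call. The 5 members that rose with TRAM2-KO2 were 2 with offsets for transcript length and 2 with limma on log2(TPM + 1). They were 2 without control A, B or C, 2 without TRAM2-KO2 B, and 3 without TRAM2-KO2 A or C. Leaving out TRAM2-KO1 A, B or C, which are not part of that comparison, gave 6, 5 and 5. The 1 that fell was 0 with length offsets, 0 with limma, and 0 to 1 with single libraries left out. With TRAM2-KO1, the 1 that rose was 0 with limma, and the count that fell, 0, was 2 in DESeq2, 2 without a filter, 1 at a mean of at least 5 CPM, 1 with the GC trend removed, 1 with that and the replicate block, and 0 to 3 with single libraries left out (3 without TRAM2-KO1 A). Between the guides, the 3 that were higher were 5 with the GC trend removed and the replicate block, 1 with length offsets, 1 with limma, and 1 without TRAM2-KO1 B and C, which was chosen after seeing the data. GRHL2 with TRAM2-KO2 reversed to -0.039 with length offsets. The causes were not tested. With the replicate block alone, the counts were 5 higher and 1 lower with TRAM2-KO2, 1 and 0 with TRAM2-KO1 and 3 and 0 between the guides. Of 54 isoform shares, 32 moved by more than 1 SD when taken from reads. PKP1 lacked the depth for a test.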
